A study of Mus musculus with 46 samples.

Results

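The genes described are 10 of the 46011 complete entries of the counts table, chosen by name: the CD3 chains of the T cell receptor complex (Cd3d, Cd3e, Cd3g and Cd247), the coreceptors (Cd4, Cd8a and Cd8b1), the accessory surface receptors Cd5 and Cd2, and the kinase Lck. RNA was sequenced from 46 AB1-HA tumors, a murine mesothelioma line that carries influenza hemagglutinin, grown under the skin of both flanks of male BALB/c mice aged 8 to 10 weeks. All mice received cyclophosphamide (CY) at 200 mg/kg on day 10 after inoculation. In each mouse the tumor of a single flank was taken for RNA and the tumor on the other flank was left to show the response, so complete responders (CR) and the group that the labels call partial responders and the study calls progressors (PR) were assigned from a tumor that was not sequenced. The groups were 13 CR and 13 PR tumors at Day-1 (day 9 after inoculation, before CY), 5 CR and 5 PR tumors at Day+3 (day 13) and 5 CR and 5 PR tumors at Day+7 (day 17), each from a different mouse. After Day-1 every tumor came from a mouse given CY, so time after CY, tumor age and growth cannot be told apart.

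The T cell receptor recognises peptide on MHC molecules but has no signalling tail of its own. It is assembled with CD3 epsilon, delta and gamma chains and a zeta chain, encoded by Cd247, whose tails are phosphorylated by Lck once CD4 or CD8 binds the same MHC molecule. CD3 epsilon, delta and gamma belong to T cells, whereas zeta, CD2 and Lck are also used by natural killer cells, and CD4 and CD8 alpha occur on some dendritic cells and macrophages.

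Each tumor held about 10200000 to 14200000 counts at Day-1, 15400000 to 18700000 at Day+3 and 16000000 to 19400000 at Day+7 over the entries of the table. The lowest count of any of the 10 genes in any tumor was 14 and the highest 2717, so none was at 0 and all 10 passed the filter on low counts in every comparison. Of 7 mesothelioma markers, Msln was above 1 CPM (counts per 1000000, on library sizes scaled by TMM) in 46 of 46 tumors and Krt8 in 38, while Krt18, Krt19, Lrrn4, Gpm6a and Calb2 were above 1 CPM in 0. Keratinocyte RNA (Krt5 above 10 CPM) was present in 5 CR and 5 PR tumors at Day-1, 0 CR and 1 PR at Day+3, and 2 CR and 3 PR at Day+7. At Day+7 the CR tumor CT7_6 had the lowest CR level of all 10 genes and the PR tumor CT7_7 the highest PR level of all 10, so the CR and PR difference at Day+7 is also given without both.

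Cd3g, Cd3d and Cd3e lie within a short stretch of chromosome 9 (GRCm38), where Cd3g (44969572 to 44980431, minus strand) and Cd3d (44981786 to 44987339, plus strand) are transcribed away from each other from starts 1355 bases apart, and Cd3e (44998740 to 45009627, minus strand) follows 11401 bases beyond Cd3d. Antisense and unclassified transcripts overlap Cd3e, and Pou2f1, on the other strand, overlaps Cd247 (chromosome 1, 165788681 to 165877277). Cd8b1 (71322788 to 71337494) and Cd8a (71373427 to 71379173) are neighbors on chromosome 6, 35933 bases apart, and Cd4 lies elsewhere on the same chromosome (124864692 to 124888221). Cd5 is on chromosome 19 (10717116 to 10739002), Cd2 on chromosome 3 (101275899 to 101287939) and Lck on chromosome 4 (129548344 to 129573641).

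The promoter windows of the clustered CD3 genes are shown because the ratios between these genes differed between days. They run from 250 bases before to 50 bases after the RefSeq start (GRCm38.p6; Cd3g at chr9:44980382-44980681, minus strand; Cd3d at chr9:44981536-44981835, plus strand; Cd3e at chr9:45009562-45009861, minus strand). Capitals mark matches, on either strand, to motifs of factors that act in T cells. The letters searched were TGTGGT for the RUNX family of factors, AGGAAG for the ETS family of factors, CAGNTG for the E box that bHLH proteins bind, AGATAA for the GATA family of factors and CTTTGAT for the TCF and LEF factors.
Cd3g: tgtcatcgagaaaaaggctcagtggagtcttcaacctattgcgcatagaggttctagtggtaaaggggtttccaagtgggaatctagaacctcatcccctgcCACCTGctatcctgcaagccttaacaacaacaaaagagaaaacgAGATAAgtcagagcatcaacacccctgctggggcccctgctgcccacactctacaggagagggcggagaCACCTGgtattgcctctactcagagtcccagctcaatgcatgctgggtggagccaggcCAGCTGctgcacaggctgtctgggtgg
Cd3d: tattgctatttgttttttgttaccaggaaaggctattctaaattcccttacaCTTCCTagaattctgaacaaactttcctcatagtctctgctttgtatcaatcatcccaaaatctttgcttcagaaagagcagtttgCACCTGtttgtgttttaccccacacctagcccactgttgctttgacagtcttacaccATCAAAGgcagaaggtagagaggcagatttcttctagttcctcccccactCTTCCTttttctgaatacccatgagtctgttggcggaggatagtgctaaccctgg
Cd3e: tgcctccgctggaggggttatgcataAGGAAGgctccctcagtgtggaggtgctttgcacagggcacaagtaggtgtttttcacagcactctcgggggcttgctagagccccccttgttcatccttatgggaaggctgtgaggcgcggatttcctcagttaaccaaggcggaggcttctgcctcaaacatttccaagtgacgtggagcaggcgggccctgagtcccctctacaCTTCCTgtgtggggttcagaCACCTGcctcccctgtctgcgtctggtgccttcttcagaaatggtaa
All 3 windows held an E box match, which 51.4% of 32851 promoter windows of this length also held. Cd3d and Cd3e each held 2 ETS matches (35.4% of all windows hold at least 1) and Cd3g held 0. Cd3g alone of the 3 held a GATA match (11.2%) and Cd3d alone a TCF/LEF match (3.73%). Windows were at hand for 7 of the 10 genes, of which 7 held an E box, 5 an ETS, 1 a RUNX (Lck; 16.8% of all windows), 1 a GATA and 1 a TCF/LEF match. These matches describe the letters of the windows, and binding was not measured.

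The first question was whether the genes differed between CR and PR tumors before treatment. At Day-1 all 10 were higher on average in CR tumors, by log2 fold changes of 0.38 to 0.72 (median 0.60, against -0.01 over all 10777 genes tested), but 0 of 10 passed the false discovery rate (FDR) of 0.1 in edgeR's quasi-likelihood test, where 0% of all genes were called higher in CR and a single gene was called lower. At an unadjusted p under 0.05, 10 of 10 were higher in CR, against 9.25% of all genes. In bulk tumors, fewer T cells and less of these RNAs per T cell cannot be told apart.

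**Figure D1:**
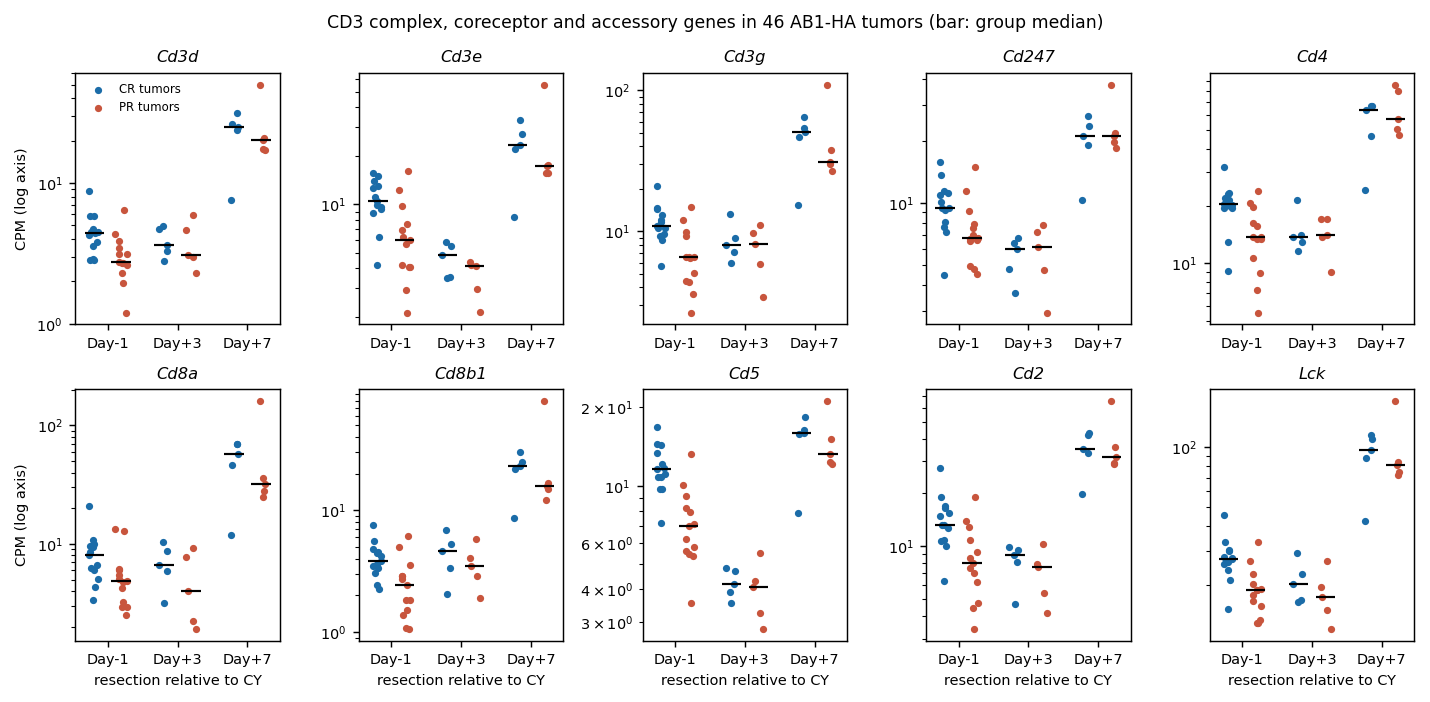
CPM of the 10 genes in each of the 46 tumors (log axis), by day of resection relative to CY; each point is a tumor, CR left of PR, and bars are group medians. CR medians stand above PR medians for all 10 genes at Day-1 with overlapping points, and both groups are highest at Day+7, where 1 CR tumor (CT7_6) lies low and 1 PR tumor (CT7_7) lies high.

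Among the CD3 chains, Cd3g, the gamma chain, measured 5.72, 10.9 and 21.0 CPM (lowest, median and highest) in CR tumors and 2.64, 6.58 and 14.9 CPM in PR tumors. The groups overlapped, with 12 of 13 CR tumors above the PR median and 2 of 13 PR tumors above the CR median. Its log2 fold change was 0.72 (SE 0.216, adjusted p = 0.143, edgeR). Cd3e, the epsilon chain, measured 4.18, 10.5 and 15.7 CPM in CR tumors, against 2.11, 6.0 and 16.0 CPM in PR tumors. Its log2 fold change was 0.68 (SE 0.245, adjusted p = 0.178, edgeR), and the highest PR tumor exceeded every CR tumor. Cd3d, the delta chain, had the lowest median level per kilobase of transcript of these 3 genes in both groups at Day-1, and measured 2.83, 4.4 and 8.73 CPM in CR tumors, against 1.2, 2.73 and 6.47 CPM in PR tumors. All 13 CR tumors stood above the PR median, with a log2 fold change of 0.53 (SE 0.198, adjusted p = 0.184, edgeR). Cd247, the zeta chain, showed the smallest difference of the 10 genes, 0.38 (SE 0.175, adjusted p = 0.256, edgeR), with 4.45, 9.48 and 15.8 CPM in CR tumors, against 4.50, 6.77 and 14.9 CPM in PR tumors.

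Both coreceptors were higher on average in CR tumors before CY. Cd4, the coreceptor for MHC class II, ranged from 9.17 to 31.9 CPM in CR tumors, against a range of 5.50 to 24.0 CPM in PR tumors, with medians of 20.5 CPM in CR and 13.7 CPM in PR. Its log2 fold change was 0.54 (SE 0.185, adjusted p = 0.168, edgeR). Cd8a and Cd8b1 encode the alpha and beta chains of the coreceptor for MHC class I. Cd8a measured 3.36, 8.00 and 20.9 CPM in CR tumors, against 2.53, 4.90 and 13.3 CPM in PR tumors (0.56, SE 0.271, adjusted p = 0.284, edgeR). Cd8b1 measured 2.24, 3.83 and 7.60 CPM in CR tumors, against 1.06, 2.41 and 6.14 CPM in PR tumors (0.63, SE 0.241, adjusted p = 0.188, edgeR). The Cd8a difference was 0.37 without the CR tumor CT10, which had the highest CR level of all 10 genes.

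Cd5, a receptor that dampens signalling through the T cell receptor, had the smallest p of the 10. It measured 7.17, 11.6 and 16.8 CPM in CR tumors, against 3.54, 7.01 and 13.3 CPM in PR tumors. Of the 13 CR tumors, 13 lay above the PR median and 4 above the highest PR tumor, and the log2 fold change was 0.70 (SE 0.151, adjusted p = 0.120, edgeR). Lck, the kinase that phosphorylates the CD3 tails, measured 15.2, 27.1 and 45.3 CPM in CR tumors, against 12.9, 18.9 and 33.1 CPM in PR tumors (0.53, SE 0.142, adjusted p = 0.133, edgeR). Cd2, an adhesion receptor that binds CD48 in mice, measured 6.35, 13.1 and 27.4 CPM in CR tumors, against 3.39, 7.97 and 18.9 CPM in PR tumors (0.69, SE 0.223, adjusted p = 0.154, edgeR).

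Whether these genes pass at Day-1 depended on the tool and on single tumors. DESeq2, the tool of the study, called 4 of 10 higher in CR, where 1.72% of all genes were called higher (5 with its independent filtering, against 2.15%). Limma-voom with quality weights called 10, against 6.63%. In edgeR the count was 9 without the PR tumor CT12, which had the highest PR level of 9 of the 10 genes, and 5.09% of all genes were called higher in that fit. It was 6 without the CR tumor CT8 (2.66% of all genes), 4 without the PR tumor CT16 (2.31%), 4 without the PR tumor CT25 (2.33%) and 1 without the PR tumor CT9 (0.129%). Within the tumors titled 1 to 14 (7 CR, 7 PR) the mean log2 CPM was higher in CR for all 10 genes, by 0.35 to 0.96. Within those titled 15 to 26 (6 CR, 6 PR) it was higher by 0.23 to 0.66. The titles were split in this way once values had been looked at.

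Other lymphocyte genes were also higher on average in CR tumors. Of 9 natural killer cell genes 6 could be tested at Day-1, and 6 were higher at an unadjusted p under 0.05, with a median log2 fold change of 0.65. Eomes, on this list, is also among the T cell transcription factors given below, so the list does not mark natural killer cells alone. Ncr1, the activating receptor NKp46, measured 6.47, 13.1 and 27.2 CPM in CR tumors, against 4.75, 7.33 and 19.3 CPM in PR tumors, while Klra8 was at 0 in all 26. The natural killer cell genes summed to 33.4 to 121 CPM in CR tumors, against 20.4 to 101 CPM in PR tumors. Of 11 B cell genes 6 could be tested, with a median of 0.35 and 2 at an unadjusted p under 0.05, and they summed to 42.4 to 76.1 CPM in CR tumors, against 34.1 to 74.8 CPM in PR tumors. Ms4a1, which encodes the B cell antigen CD20, was low, with a median of 0.40 CPM in CR and 0.32 CPM in PR tumors. With a score of the B cell genes in the model the log2 fold changes at Day-1 lay between -0.11 (Cd247) and 0.32 (Cd5), with 0 called. Lymph node stroma genes summed to 4.27 to 17.0 CPM in CR tumors, against 1.15 to 19.1 CPM in PR tumors, with Glycam1 at a median of 0.31 CPM in CR and 0.19 CPM in PR. Genes of other cells were also higher or lower on average, with 0 of them called by edgeR. Skeletal muscle genes were higher in CR for 8 of 8 (median 0.55, 3 at an unadjusted p under 0.05) and summed to 210 to 1133 CPM in CR, against 152 to 728 CPM in PR tumors. Macrophage genes were higher for 8 of 9 (median 0.24, 4 at that p) and summed to 2330 to 3964 CPM in CR, against 1740 to 2973 CPM in PR tumors. Plasmacytoid dendritic cell genes were higher for 5 of the 5 tested (median 0.46, 3 at that p) and type 1 conventional dendritic cell genes for 5 of 6 (median 0.34, 2 at that p). Both mesothelioma markers that could be tested were lower in CR (median -0.51, 2 at that p), and the 7 markers summed to 288 to 426 CPM in CR, against 303 to 611 CPM in PR tumors. The part of these cells in the difference was not tested beyond the models with B cell scores and with skin and muscle scores, and 0 of the 10 genes were called in the model with skin and muscle scores either.

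Of 26 other genes of T cell receptor signalling, 23 were higher in CR at Day-1, 0 were called and 16 had an unadjusted p under 0.05, with a median log2 fold change of 0.25. Among those with the smallest p were Icos, a costimulatory receptor (0.61, SE 0.201), and Cd6, a relative of CD5 (0.55, SE 0.183). Of 9 transcription factors of T cells, 9 were higher, 0 called and 7 at an unadjusted p under 0.05, with a median of 0.41. Of 10 general leukocyte genes 9 had an unadjusted p under 0.05, with a smaller median of 0.22.

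The difference between CR and PR was next examined after CY. At Day+3, 0 of 10 genes passed (0% of 11839 genes, 0 called in all by edgeR, 3 by DESeq2, 256 at an unadjusted p under 0.05), with log2 fold changes of -0.06 to 0.46 (median 0.19) and unadjusted p of 0.113 to 0.896. Cd3e measured 3.49, 3.55, 4.85, 5.52 and 5.81 CPM in CR tumors, against 2.14, 2.97, 4.13, 4.20 and 4.35 CPM in PR tumors. Of the CR values, 3 exceeded every PR value, and the log2 fold change was 0.38 with a 95% interval of -0.11 to 0.87. Cd4 measured 11.6, 13.0, 13.8, 14.1 and 21.4 CPM in CR tumors, against 9.05, 13.8, 14.1, 17.1 and 17.1 CPM in PR tumors, a log2 fold change of 0.05 (95% interval -0.37 to 0.48).

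At Day+7, 0 of 10 passed (0% of 11727 genes, 0 called in all by edgeR, 5 by DESeq2, 333 at an unadjusted p under 0.05), with log2 fold changes of -0.35 to 0.01 (median -0.14). Cd8a measured 12, 46.1, 57.2, 69.8 and 70.1 CPM in CR tumors, against 25.0, 27.9, 32.0, 35.9 and 161 CPM in PR tumors. Leaving aside the single low CR tumor (CT7_6) and the single high PR tumor (CT7_7), the 4 CR values lay above the 4 PR values. Cd3e followed the same pattern, with 8.29, 22, 23.5, 27.3 and 33.3 CPM in CR tumors, against 15.6, 15.7, 17.4, 17.4 and 55.4 CPM in PR tumors. Cd4 did not, with 24.1, 46.4, 63.5, 66.5 and 66.7 CPM in CR tumors, against 47.4, 50.8, 57.1, 79.8 and 86.5 CPM in PR tumors. The log2 fold changes were -0.14 for Cd8a (95% interval -1.41 to 1.13), -0.08 for Cd3e (-1.01 to 0.85) and -0.26 for Cd4 (-0.85 to 0.32). Without both tumors, which were chosen after their values were seen, they were 1.0, 0.68 and 0.04, and 0 of 10 passed over all genes (the lowest adjusted p was 0.334, edgeR, for Cd8a).

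**Figure D2:**
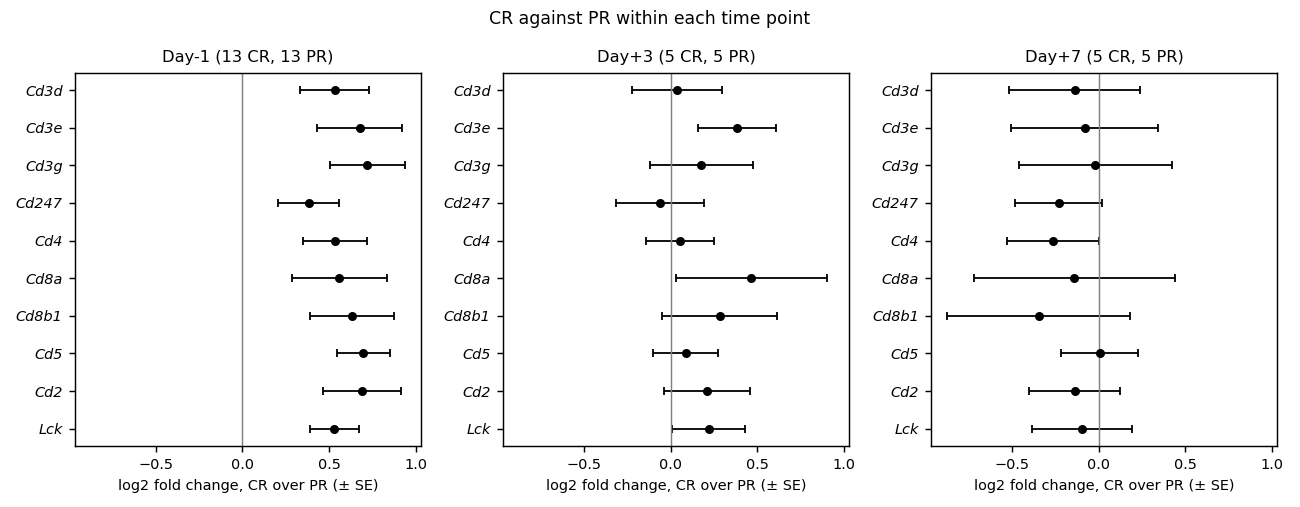
Log2 fold change of CR over PR (x axis, point and SE bar) for each of the 10 genes at Day-1, Day+3 and Day+7. At Day-1 all 10 points lie between 0.38 and 0.72, at Day+3 between -0.06 and 0.46 and at Day+7 between -0.35 and 0.01. The bars are wider at Day+7 than at Day-1 for all 10 genes, and at Day+3 for all but Cd3e (SE 0.224 at Day+3, against 0.245 at Day-1).

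The change of the CR minus PR difference from Day-1 was tested as an interaction. It was negative for all 10 genes at Day+3 (median -0.46, 0 called of 13194 genes tested by edgeR and 3 by DESeq2, 0 of 10 by either, 1 of 10 at an unadjusted p under 0.05) and at Day+7 (-0.99 to -0.62, median -0.73, 0 of 10 called by edgeR or DESeq2, against 0% of all genes called lower by edgeR). At Day+7, 4 of 10 had an unadjusted p under 0.05 (Cd5, Cd4, Cd2 and Lck), against 5.62% of all genes that were lower at that level. Cd5 had -0.69 (SE 0.274, adjusted p = 0.356, edgeR). Without CT7_6 and CT7_7 the interaction at Day+7 was 0.45 for Cd8a, 0.11 for Cd8b1, 0.06 for Cd3g and 0.00 for Cd3e. Both later interactions share the Day-1 tumors.

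The largest differences were with time. At Day+7 against Day+3 all 10 genes rose, 10 of 10 called against 38.8% of the 13194 genes tested, with log2 fold changes of 1.85 to 3.18 (median 2.39, against 0.02 over all genes). The 10 Day+7 tumors lay above the 10 Day+3 tumors for all 10 genes, which 19.2% of all genes also showed. At Day+7 against Day-1 all 10 rose as well, 10 of 10 called against 43% of all genes, with log2 fold changes of 0.68 to 2.95 (median 1.91, against -0.01 over all genes). With a score of the B cell genes in the model, the rise of Cd5 from Day-1 was 0.08 and did not pass. The comparisons share tumors and are given side by side.

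**Figure D3:**
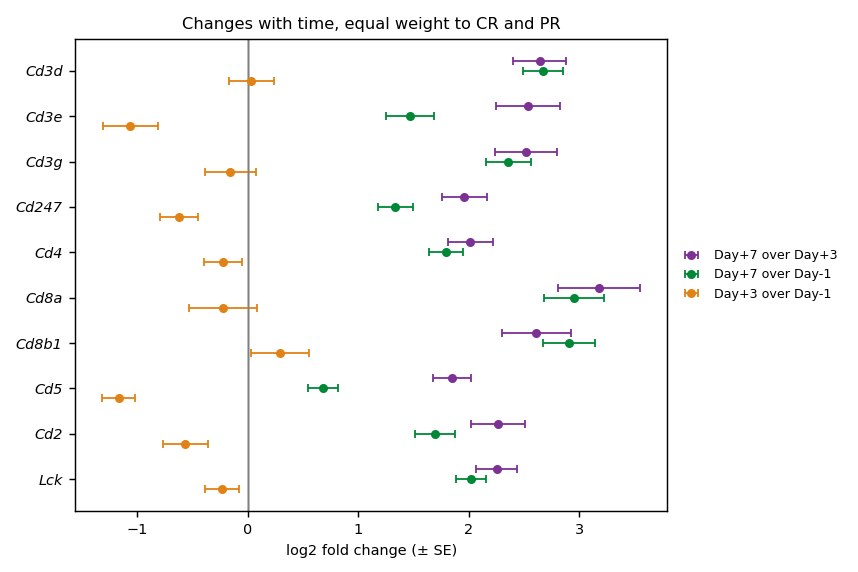
Log2 fold change with time (x axis, point and SE bar) for each gene, with equal weight to CR and PR: Day+7 over Day+3, Day+7 over Day-1 and Day+3 over Day-1. Day+7 points lie at 0.68 or above for every gene, while Day+3 over Day-1 spreads from -1.17 (Cd5) to 0.29 (Cd8b1).

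Cd8a had the largest rise of the 10 at both steps to Day+7, 2.95 (SE 0.270) against Day-1, where Cd8b1 followed with 2.91 (SE 0.235). At Day+7 against Day+3, Cd8a rose by 3.18 (SE 0.374) and Cd8b1 by 2.61 (SE 0.314), both called by edgeR with an adjusted p = 3.08e-10 and 5.20e-10. Group medians of Cd8a were 57.2 CPM in CR and 32.0 CPM in PR at Day+7, against 6.70 CPM in CR and 3.98 CPM in PR at Day+3. Those of Cd8b1 were 23.1 CPM in CR and 15.7 CPM in PR at Day+7, against 4.67 CPM in CR and 3.50 CPM in PR at Day+3. Cd4 rose by 2.01 (SE 0.205, adjusted p = 5.80e-12, edgeR), with medians of 63.5 CPM in CR and 57.1 CPM in PR at Day+7, against 13.8 CPM in CR and 14.1 CPM in PR at Day+3.

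The CD3 chains rose together at this step. Cd3d rose by 2.64 (SE 0.244), Cd3e by 2.53 (SE 0.290) and Cd3g by 2.52 (SE 0.279), while Cd247 rose by 1.96 (SE 0.204). Cd3g measured 15.3, 46.8, 50.9, 53.7 and 65.0 CPM in CR and 26.9, 30, 31.2, 37.8 and 110 CPM in PR tumors at Day+7, against 5.99, 7.15, 8.02, 8.93 and 13.3 CPM in CR and 3.43, 5.83, 8.12, 9.75 and 11.2 CPM in PR tumors at Day+3. The lowest Day+7 tumor, CT7_6, was above the highest Day+3 tumor. Cd3d measured 7.54, 23.8, 24.9, 26.3 and 31.3 CPM in CR and 17.2, 17.5, 20.2, 20.8 and 49.9 CPM in PR tumors at Day+7, against 2.80, 3.31, 3.65, 4.73 and 4.95 CPM in CR and 2.30, 2.97, 3.07, 4.67 and 5.90 CPM in PR tumors at Day+3. As for Cd3g, the days did not overlap, and CT7_6 was again the lowest and CT7_7 the highest of the Day+7 tumors. Lck rose by 2.25 (SE 0.185), Cd2 by 2.26 (SE 0.242) and Cd5 by 1.85 (SE 0.171), the smallest rise of the 10. Lck, the most abundant of the 10 per kilobase in 5 of the 6 groups, measured 42.1, 88.2, 96.1, 110 and 114 CPM in CR and 72, 74.5, 81.5, 84 and 171 CPM in PR tumors at Day+7. At Day+3 it measured 16.6, 16.9, 20.2, 22.8 and 29 CPM in CR and 12, 15, 17.5, 19.6 and 26.4 CPM in PR tumors, all below the lowest Day+7 tumor.

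At Day+3 against Day-1, genes called lower were about as common among the 10 as among all genes. Of the 10, 4 were called lower and 0 higher, where 39.6% of all genes were called lower and 37.9% higher. Cd5 fell by 1.17 on the log2 scale (SE 0.15, adjusted p = 2.61e-09, edgeR), Cd3e by 1.07 (SE 0.249, adjusted p = 1.92e-04), Cd247 by 0.62 (SE 0.174, adjusted p = 0.00149) and Cd2 by 0.57 (SE 0.204, adjusted p = 0.0119). Cd5 measured 3.54, 3.91, 4.19, 4.72 and 4.85 CPM in CR and 2.81, 3.23, 4.09, 4.30 and 5.54 CPM in PR tumors at Day+3. At Day-1 its CR tumors, at 7.17 to 16.8 CPM, all lay above the Day+3 tumors, while its PR tumors, at 3.54 to 13.3 CPM, overlapped them. The other 6 genes did not pass, with 0.29 for Cd8b1, 0.03 for Cd3d, -0.16 for Cd3g, -0.22 for Cd4 and Cd8a, and -0.23 for Lck. With the score of the B cell genes in the model 9 of 10 were called lower, all but Cd8b1 (-0.25), where 38.7% of all genes were called lower in the same fit. The 95% intervals ran from -0.38 to 0.44 for Cd3d and from -0.62 to 0.31 for Cd3g.

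Values that moved with time in all libraries stand beside these changes. Across 9223 genes, the log2 fold change fell with transcript length (Spearman rho -0.35 at Day+3 against Day-1, -0.26 at Day+7 against Day-1 and -0.07 at Day+7 against Day+3). At Day+3 against Day-1 the median was 0.46 for genes with transcripts up to 1 kb and -0.41 for those over 6 kb. The longest coding transcripts have 1617 bases for Cd3d, 1462 for Cd3e and 1023 for Cd3g. They have 2989 bases for Cd5, 2957 for Cd247 and 1153 for Cd2, which with Cd3e were called lower at Day+3. Those of the other genes have 2185 bases for Lck, 3108 for Cd4, 3128 for Cd8a and 1483 for Cd8b1. Libraries at Day-1 were also shallower, and the part of library differences in the time changes was not tested.

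Ratios within a tumor show where the genes moved apart, since they do not change with a common rise or fall. In 60 tests (10 ratios of CPM, not corrected for length, in 6 comparisons, by two-sided permutation tests with Benjamini-Hochberg adjustment over the 60), 21 passed at 0.05. Most of the ratios hold Cd3e, so they are not independent of each other, and a change of Cd3e alone moves all of those. Of the 21, 1 was between CR and PR. At Day-1 the ratio of Cd3e to the mean of 10 general leukocyte genes was higher in CR, with a median of 0.0589 in CR and 0.0392 in PR (log2 difference 0.59, permutation test with 100000 resamples, p = 0.00992, adjusted p = 0.0283). The adjusted p lay between 0.00735 and 0.0533 over 28 alternatives, and it was 0.0533 (permutation test) without the PR tumor CT2. None of the other ratios of these genes passed between CR and PR at any day, and the lowest adjusted p among them was 0.0576 for Cd247 to Cd3e at Day-1. With a single tumor left out, Cd247 to Cd3e passed at Day-1 in 7 of 26 cases and at Day+3 without the CR tumor CT3_4 (log2 difference -0.52, exact permutation test, adjusted p = 0.0227), and Cd8b1 to Cd4 passed at Day+7 without the PR tumor CT7_7 (0.64, exact permutation test, adjusted p = 0.0227).

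**Figure D4:**
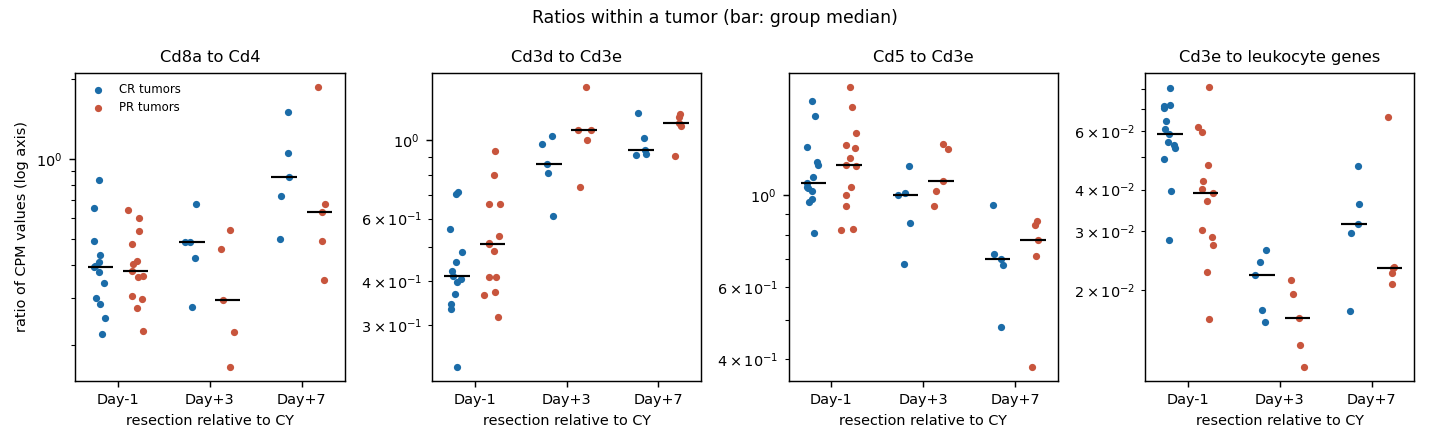
Ratios of CPM within each tumor (log axis), by day of resection relative to CY, for Cd8a to Cd4, Cd3d to Cd3e, Cd5 to Cd3e and Cd3e to the mean of 10 leukocyte genes; each point is a tumor, CR left of PR, and bars are group medians. Cd8a to Cd4 stands highest at Day+7, Cd3d to Cd3e is lower at Day-1 than at both later days, and Cd3e to leukocyte genes is highest at Day-1.

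Cd8a was higher relative to Cd4 at Day+7 than before CY. At Day+7 the ratio of Cd8a to Cd4 had a median of 0.857 in CR and 0.630 in PR tumors, against 0.394 in CR and 0.381 in PR tumors at Day-1. The log2 difference was 0.97 (exact permutation test within CR and within PR, p = 7.50e-05, adjusted p = 4.14e-04). Against Day+3 it was 1.03 (same test, p = 0.00211, adjusted p = 0.00791). Cd8b1 to Cd4 was higher by 0.92 at Day+7 than at Day-1 (exact permutation test, p = 4.73e-06, adjusted p = 3.55e-05). Cd8a to Cd8b1 was lower at Day+3 than at Day-1, with a log2 difference of -0.55 (exact permutation test, p = 0.00128, adjusted p = 0.00512), and at Day+7 differed from Day-1 by 0.05 (exact permutation test, p = 0.719, adjusted p = 0.788). Cd8b1 to Cd4 was higher at Day+3 than at Day-1 by 0.48 (exact permutation test, p = 0.00414, adjusted p = 0.0124). Cd8b1 has a shorter transcript (1483 bases) than Cd8a (3128) and Cd4 (3108), and the part of transcript length in these ratios was not tested.

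The ratios between CD3 chains differed between Day-1 and the later days. Cd3d to Cd3e had a median of 0.855 in CR and 1.07 in PR at Day+3 and of 0.938 in CR and 1.12 in PR at Day+7, against 0.411 in CR and 0.510 in PR at Day-1. The log2 difference from Day-1 was 1.0 at Day+3 (exact permutation test, p = 5.72e-07, adjusted p = 5.72e-06) and 1.15 at Day+7 (exact permutation test, p = 2.72e-08, adjusted p = 5.45e-07). Cd3g to Cd3e was higher by 0.81 at Day+3 and 0.84 at Day+7, with no overlap with Day-1 (exact permutation test, p = 1.36e-08 each, the smallest it can give, adjusted p = 4.09e-07). Between Day+7 and Day+3 these ratios differed by 0.15 and 0.03 (exact permutation test, adjusted p = 0.334 and 0.824). Cd3d to Cd3e and Cd3g to Cd3e were added after values had been seen. Cd3e overlaps an antisense gene and the counts of the 2 cannot be told apart where strand was not used, which is not given in the sources used here.

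Other ratios to Cd3e, which share the same Cd3e values, also differed between days. Lck to Cd3e was higher at Day+3 than at Day-1 by 0.72 (exact permutation test, p = 1.10e-06, adjusted p = 9.46e-06) and Cd2 to Cd3e by 0.44 (exact permutation test, p = 1.40e-05, adjusted p = 9.36e-05). Cd5 to Cd3e went the other way at Day+7, lower than at Day-1 with a log2 difference of -0.74 (exact permutation test, p = 5.18e-07, adjusted p = 5.72e-06) and lower than at Day+3 with one of -0.57 (exact permutation test, p = 7.87e-04, adjusted p = 0.00394). Cd5 (2989 bases) and Lck (2185) have longer transcripts than Cd3e (1462), and Cd2 (1153) a shorter one. The part of transcript length in these ratios was not tested. Cd3e to the leukocyte genes was lower at Day+3 than at Day-1, with a log2 difference of -1.33 (exact permutation test, p = 1.50e-07, adjusted p = 2.25e-06), and higher at Day+7 than at Day+3 by 0.68 (exact permutation test, p = 0.00321, adjusted p = 0.0107). At Day+7 it was still lower than at Day-1, with a log2 difference of -0.66 (exact permutation test, p = 0.00339, adjusted p = 0.0107), although Cd3e itself rose. From Day-1 to Day+7 Cd3e rose by 1.47 and Cd247 by 1.34, while Cd3d rose by 2.67 and Cd3g by 2.36. The median of the leukocyte genes was 2.10. Only Cd3e was set against the leukocyte genes as a ratio, so the other chains were not tested in this way. Of the 10 leukocyte genes, 6 were called higher and 2 lower at Day+3 against Day-1, with a median log2 fold change of 0.20. Of all genes, 37.9% were called higher and 39.6% lower at that step.

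Other genes of the pathway also changed with time. At Day+7 against Day-1, 24 of the 26 T cell receptor signalling genes were called higher and 2 lower (median 1.18). Of all genes, 43% were called higher and 42.8% lower. The smallest p belonged to Dok2, an adaptor that restrains the receptor (3.38, SE 0.0886), Csk, the kinase that inhibits Lck (1.24, SE 0.0406), the Src family kinase Fyn (1.07, SE 0.0408) and Cd48, the ligand of CD2 in mice (2.37, SE 0.107). Csk, Fyn, Dok2 and Cd48 are not restricted to T cells. At Day+3 against Day-1, 8 of the 26 were called higher and 14 lower, where 37.9% of all genes were called higher and 39.6% lower. Among those called lower was Malt1, a protease that acts in antigen receptor signalling (-1.31, SE 0.0834). Of the 9 T cell transcription factors 8 were called lower at Day+3, against 39.6% of all genes. They included Foxp3, which defines regulatory T cells (-1.62, SE 0.172), Gata3 (-0.78, SE 0.112) and Ets1 (-1.0, SE 0.0439).

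General leukocyte genes rose at Day+7 as well, with 10 of 10 called higher against Day-1, where 43% of all genes were called higher. Their median was 2.10, against 1.91 for the 10 T cell genes. Natural killer cell genes had 7 of 7 called with a median of 2.72, and macrophage genes 9 of 9 with a median of 1.80. Of 6 type 1 conventional dendritic cell genes 5 were called higher and 1 lower (median 2.18), and of 6 plasmacytoid dendritic cell genes 6 were called higher (median 1.70). Of 4 lymph node stroma genes that could be tested, 4 were called higher (median 2.58). Of 7 neutrophil genes 6 were called higher and 1 lower (median 4.73). The lymph node stroma genes summed to a median of 69.6 CPM in CR and 55.5 CPM in PR at Day+7, against 9.54 CPM in CR and 5.09 CPM in PR at Day-1. CT7_7 had the highest PR sum at Day+7 (100 CPM), where the highest CR sum was 117 CPM. The part of all these cells and of lymph node tissue in the rise of the 10 genes was not tested. The mesothelioma marker Msln had a median of 59.2 CPM at Day+7, against 375 CPM at Day-1.

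Ordered by group median, CR at Day+7 was highest for all 10 genes and PR at Day+7 second. The PR Day+7 tumors did not overlap the next group for 8 of the 10 genes, all but Cd3e and Cd5. The share of all genes with such a gap was not counted, so the 8 are only a description. All other neighbors in the order, 42 of 50 pairs, overlapped, so the order among the Day-1 and Day+3 groups is not resolved by these tumors. Per kilobase of the longest coding transcript, Lck, Cd3g and Cd2 held the first 3 places in every group. Median levels per kilobase at Day+7 were 49.7 CPM in CR and 30.5 CPM in PR for Cd3g, and 5.31 CPM in CR and 4.44 CPM in PR for Cd5, which was last there.

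With the means of the 6 groups removed, the 10 genes varied together over the 46 tumors. Pearson r over the 45 pairs ran from 0.71 to 0.95 (median 0.86), and each gene's r with the mean of the other 9 ran from 0.87 (Cd8b1) to 0.97 (Cd3g). Cd8a varied most within groups (residual SD 0.77 on the log2 scale) and Cd5 least (0.36). Of 13184 other genes, those most like the mean of the 10 included Ms4a4b (r = 0.95), Klrd1 (0.95), Il2rb (0.95), Il18r1 (0.94), Acap1 (0.93), Nkg7 (0.93), Itgal (0.92), Atp2a3 (0.92) and Cd6 (0.92). The mean of the 10 had r = 0.93 with the natural killer cell genes, 0.88 with the leukocyte genes, 0.70 with the B cell genes and 0.64 with the macrophage genes. Eomes of the natural killer cell list is also a listed T cell transcription factor, and the part of T cells in that list was not tested. These r values are descriptions over 46 libraries that share the same normalization.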

How the data were processed

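RNA from 46 AB1-HA tumors was sequenced by the authors (single-end reads, whose length the labels and the methods give differently) and pseudoaligned with kallisto to GRCm38.p6, per the submitters' processing notes. The version, the use of strand and the way transcripts were summed to genes are not given in the sources used here. The deposited values are counts per gene symbol, not normalized. Of the table, 46011 entries were complete and 1, cut short, was left out. Symbols that sort after it were not analysed here. Groups were taken from the labels. The 10 genes, the lists and the tests were chosen with earlier results of these data known.

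In R 4.3.3, counts were scaled by TMM (factors 0.849 to 1.13) and tested with edgeR 4.0.16 (filterByExpr, glmQLFit in its older form, glmQLFTest), with Benjamini-Hochberg adjustment over all genes at an FDR of 0.1, the threshold of the study. The study applied that threshold with DESeq2, a tool given here as an alternative. Response was tested separately at Day-1, Day+3 and Day+7. Changes with time, in which both responses weigh the same, and interactions came from 1 model of 6 groups over all 46 tumors. Intervals use the degrees of freedom of the test. CPM uses TMM library sizes, and ratios use log2 CPM with a prior count of 2. Ratios were compared by two-sided permutation tests, exact except for 13 against 13 tumors (100000 resamples). The fits were tested on simulated data. No library was a copy of another (0 of 1035 pairs; chi-square per degree of freedom at least 3.96 over 9810 genes). The mice being different, p-values measure spread between mice. All 10 genes are named. Of other lists at most 4 genes with the smallest p are named, with marker genes beside them, and genes among the 10 most correlated. Some genes that these rules would name are not reported here. Gene positions are from GENCODE M21, promoters from RefSeq (GRCm38.p6). Alternatives were DESeq2 1.42.0, limma-voom (limma 3.58.1), other size factors, other filters (none, or 1 CPM), an FDR of 0.05, other tumors in the model, covariates (skin and muscle, B cells), no tumor above 10 CPM of Krt5, and each tumor left out. Added after seeing the data were the revised quasi-likelihood method, the titles above 14 as a covariate, and a fit with neither CT7_6 nor CT7_7.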

Additional observations from a re-analysis of the deposited data

Results flagged for a closer look

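At Day+7 the PR tumor CT7_7 stood apart from the 4 other PR tumors by more than Dixon's limit for a group of 5 (0.710 of the range) in 8 of the 10 genes. It had 49.9 CPM of Cd3d (next 20.8), 55.4 CPM of Cd3e (next 17.4), 110 CPM of Cd3g (next 37.8), 37.5 CPM of Cd247 (next 21.8), 161 CPM of Cd8a (next 35.9), 79.5 CPM of Cd8b1 (next 16.9), 65.8 CPM of Cd2 (next 36.3) and 171 CPM of Lck (next 84.0). Its ratios stood apart as well, at 0.919 for Cd8b1 to Cd4 (next 0.317), 1.86 for Cd8a to Cd4 (next 0.677), 0.678 for Cd247 to Cd3e (next 1.18) and 0.0662 for Cd3e to the leukocyte genes (next 0.0234). Its Cd4 and Cd5 did not pass the limit.

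The CR tumor CT7_6 had 7.83 CPM of Cd5 at Day+7, with 15.9 CPM in the nearest CR tumor. At Day+3 the CR tumor CT3_8 had 21.4 CPM of Cd4 (next 14.1), and the PR tumor CT3_9 a Cd2 to Cd3e ratio of 2.43 (next 1.89). Of 80 groups of values examined 15 passed the limit, where chance gives about 1 in 20. The values of 1 tumor are not independent of each other.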

How the results depend on the processing

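The rises of all 10 genes at Day+7 kept their direction under every alternative run, and the calls held except that of Cd5 against Day-1, which was 0.08 with the B cell score. The number of genes called at Day-1 was 0 in edgeR, 4 with DESeq2 and 5 with its independent filtering, 10 with limma-voom, 1 with the other tumors in the model, 2 with the titles above 14 as a covariate, and 0 to 9 with single tumors left out. Of all genes, 0% were called higher in edgeR, 1.72% and 2.15% with DESeq2, 6.63% with limma-voom, 0.0455% with the other tumors, 0.575% with the titles, and 0% to 5.09% with single tumors left out. At Day+3 against Day-1 it was 9 with the B cell score (38.7% of all genes were called lower), and 4 to 5 with single tumors left out. Many differences between CR and PR, and some at Day+3 against Day-1, changed sign under some settings, among them the interaction of Cd8b1 at Day+7 (-0.99), and the cause was not tested. With the B cell score the values were -0.0321 for Cd3d and -0.11 for Cd247 for CR against PR at Day-1, 0.0141 for Cd247 at Day+3 and 0.00743 for Cd8a at Day+7, -0.52 for Cd3d and -0.25 for Cd8b1 for Day+3 against Day-1, and 0.14 for Cd3d, 0.25 for Cd3e, 0.0379 for Cd3g, 0.10 for Cd247, 0.11 for Cd4, 0.50 for Cd8a, 0.20 for Cd8b1, 0.12 for Cd2 and 0.15 for Lck for the interaction at Day+3. With limma-voom they were 0.00101 for Cd247 at Day+3, 0.15 for Cd3d, 0.29 for Cd3e, 0.36 for Cd3g, 0.49 for Cd8a, 0.26 for Cd8b1, 0.0388 for Cd2 and 0.12 for Lck at Day+7, and 0.00246 for Cd8a for the interaction at Day+3. Without tumors above 10 CPM of Krt5 they were 0.0435 for Cd247 at Day+3 and 0.00431 for Cd8a for the interaction at Day+3. With skin and muscle scores they were 0.0306 for Cd3e, 0.10 for Cd3g and 0.16 for Cd8a at Day+7. With neither CT7_6 nor CT7_7 they were 0.49 for Cd3d, 0.68 for Cd3e, 0.78 for Cd3g, 0.15 for Cd247, 0.0436 for Cd4, 1.0 for Cd8a, 0.75 for Cd8b1, 0.29 for Cd2 and 0.38 for Lck at Day+7, and 0.00422 for Cd3e, 0.0597 for Cd3g, 0.45 for Cd8a and 0.11 for Cd8b1 for the interaction at Day+7. The ratio of Cd8a to Cd4 for CR against PR at Day-1 was 0.00304 with a prior count of 0.5.

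With single tumors left out, the values that changed sign ranged over -0.10 to 0.25 for Cd3d, -0.0262 to 0.35 for Cd3g, -0.23 to 0.0758 for Cd247, -0.11 to 0.14 for Cd4 and -0.0192 to 0.23 for Cd5 for CR against PR at Day+3. For CR against PR at Day+7 they ranged over -0.29 to 0.26 for Cd3d, -0.27 to 0.47 for Cd3e, -0.18 to 0.56 for Cd3g, -0.33 to 0.75 for Cd8a, -0.54 to 0.55 for Cd8b1, -0.0804 to 0.17 for Cd5, -0.23 to 0.14 for Cd2 and -0.21 to 0.21 for Lck. The range was -0.078 to 0.14 for Cd3d for Day+3 against Day-1, -0.30 to 0.24 for Cd8a for the interaction at Day+3 and -0.89 to 0.20 for Cd8a for that at Day+7. For the log2 ratios the ranges were -0.0959 to 0.0647 for Cd8a to Cd4 (CR vs PR at Day-1), -0.16 to 0.0489 for Cd8a to Cd4 (Day+3 vs Day-1), -0.00668 to 0.13 for Cd8a to Cd8b1 (Day+7 vs Day-1), -0.0198 to 0.0457 for Cd3g to Cd3e (CR vs PR at Day-1), -0.0201 to 0.0747 for Cd3g to Cd3e (Day+7 vs Day+3), -0.0309 to 0.25 for Cd8a to Cd8b1 (CR vs PR at Day+7), -0.22 to 0.13 for Cd5 to Cd3e (CR vs PR at Day+7) and -0.0141 to 0.45 for Cd3e to leukocytes (CR vs PR at Day+7). No paired analysis was possible because no animal gave more than 1 tumor and the labels give no litter, batch or day that a title number would mark as shared. Groups of 5 after CY, depth that differs between days and the lack of tumors without CY limit these comparisons.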
